A study of Arachis hypogaea with 14 samples.

Results

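The miR160 family was followed in developing peanut (Arachis hypogaea) seeds, together with the auxin response factor (ARF) transcripts that the study's degradome table pairs with it. Its members were all entries of the deposited small RNA table named miR160 or MIR160, with lines of the same sequence counted as 1 entry. This gave 9 entries among 795, of which 6 carried the name of a known mature miRNA and 3 the name of another arm of a known hairpin. Small RNAs were sequenced from 12 libraries in 4 groups of 3: line 8107 at 35 days after flowering (DAF), line 8106 at 35 DAF, line 8107 at 15 DAF and line 8106 at 15 DAF. Both are recombinant inbred lines in their 8th generation, 8107 a super-pod and 8106 a medium-pod variety, and RNA came from fresh seed. A further 2 degradome libraries, 1 for each line, cover both stages. Each line is 1 genotype, so a difference between them is a difference between these lines.

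In land plants miR160 guides ARGONAUTE to the mRNAs of ARF10, ARF16 and ARF17 and their close relatives, which are then cut. These factors bind auxin response elements and, in Arabidopsis thaliana, are counted among the repressors of auxin-responsive genes. Arabidopsis plants with miR160-resistant forms of these mRNAs show altered embryos, seeds and leaves. A mature miRNA leaves its hairpin as a duplex with a strand from the opposite arm, and its seed takes a large part in target recognition.

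The 9 sequences are printed as the deposited table gives them, 5′ to 3′ and in DNA letters, with the seed (bases 2 to 8) in capitals. They are shown because the entries differ in arm and in their 5′ end, which sets the seed. The most abundant entry, mtr-miR160a, is also listed under soybean (gma) and potato (stu) names, and the 4 entries with L and a number carry bases added to its 5′ end. The prefixes ptc, vvi and nta stand for poplar, grapevine and tobacco.
mtr-miR160a: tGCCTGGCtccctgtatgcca
ptc-miR160a_L+1: aTGCCTGGctccctgtatgcca
mtr-miR160a_L+2: cCTGCCTGgctccctgtatgcca
vvi-miR160c_L+3: cCATGCCTggctccctgtatgcca
nta-miR160a_L+4: gATCTGCCtggctccctgtatgcca
gma-miR160a-3p: gCGTATGAggagccaagcata
gma-MIR160e-p3_1ss5GA: tAACAAATggcgtgcgaggag
vvi-MIR160d-p3: cGTGCGAGgagccatgcatgc
mtr-MIR160a-p5: cCCTGTATgccatttgtagagt

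The top 5 sequences all end in the whole 21 nt mature miRNA, and the additions to its 5′ end (A, CC, CCA and GATC) give each a seed of its own. All 9 seeds differ, and 0 other entries of the table carry the seed of mtr-miR160a. The opposite strand gma-miR160a-3p paired with mtr-miR160a at 17 of 19 opposed positions, 14 of them Watson-Crick and 3 G:U, with a 2-base 3′ overhang at each end. That is the layout of a miRNA duplex. The 3′ arm entry vvi-MIR160d-p3 paired at 16 of 18 positions with 3-base overhangs, and it shares 16 of 20 aligned bases with gma-miR160a-3p. The other arms lie beside these strands: the start of mtr-MIR160a-p5 overlaps the 3′ end of mtr-miR160a by 12 bases, and the 3′ end of gma-MIR160e-p3_1ss5GA overlaps the start of vvi-MIR160d-p3 by 11. The neighbours mtr-MIR160a-p5 and gma-MIR160e-p3_1ss5GA paired with each other at 17 of 19 positions. No genome was used here, so the peanut loci of these sequences are not given.

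Levels are the normalized reads that the authors deposited. Library totals were 464658 to 527704 in 8107 and 998924 to 1086382 in 8106 at 35 DAF, against 604325 to 641690 in 8107 and 660450 to 684045 in 8106 at 15 DAF. The 2 most abundant entries of a library, which are not miR160, took 47.5 to 49.1% of the total in 8107 and 65.3 to 70.1% in 8106 at 35 DAF. The scaling of the libraries therefore bears on each level below, and ratios between entries of 1 library are given as values that no factor common to a library changes, although quantile normalization does. Per library, 36.0 to 54.5% of entries were listed at 0. The lowest listed value was worth 6 steps of the value scale in 11 libraries and 0.5 of a step in 1 library, so a listed 0 may hide a few reads.

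The family was dominated by mtr-miR160a, which made up 74.4 to 87.9% of the summed miR160 values of a library. The sum averaged 1794 ± 241 normalized reads in 8107 and 3218.1 ± 689 in 8106 at 35 DAF, against 4770.5 ± 734 in 8107 and 4091.2 ± 482 in 8106 at 15 DAF (SD, n = 3 each). As a share of the library total it averaged 0.361 ± 0.0259% in 8107 and 0.311 ± 0.0508% in 8106 at 35 DAF, against 0.763 ± 0.0945% in 8107 and 0.606 ± 0.0808% in 8106 at 15 DAF. By either measure the mean of each line was lower at 35 than at 15 DAF, whereas the order of the lines at 35 DAF differed between the measures. In bulk seed, fewer cells with a small RNA and less of it per cell cannot be told apart.

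The mature strand mtr-miR160a measured 1328.5, 1652.8 and 1177.6 normalized reads in 8107 and 2453.8, 3526.0 and 2296.1 in 8106 at 35 DAF. At 15 DAF it measured 3266.8, 4628.9 and 3870.1 in 8107 and 2699.7, 3632.9 and 3284.0 in 8106. All 3 libraries of 8107 at 35 DAF lay below every other library, and replicate 2 was the highest in each of the 4 groups. The order of the group means was 8107 at 15 DAF, 8106 at 15 DAF, 8106 at 35 DAF and 8107 at 35 DAF, and of the neighbours in it, 8107 and 8106 at 35 DAF passed the test. Behind these values stood 1470 to 10527 reads per library, as estimated from the steps of the value scale.

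The opposite strand gma-miR160a-3p measured 186, 193 and 177 normalized reads in 8107 and 233, 333 and 202 in 8106 at 35 DAF. At 15 DAF it measured 323, 362 and 351 in 8107 and 323, 401 and 376 in 8106. Both lines were lower at 35 DAF, but the highest library of 8106 at 35 DAF (333) lay above the lowest of 8106 at 15 DAF (323). The arm entry gma-MIR160e-p3_1ss5GA measured 205, 191 and 199 in 8107 and 123, 136 and 135 in 8106 at 35 DAF. It measured 430, 533 and 430 in 8107 and 437, 427 and 463 in 8106 at 15 DAF. On the deposited scale 8107 was the higher line for this arm at 35 DAF, the opposite of the mature strand, and every library at 35 DAF lay below every library at 15 DAF.

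**Figure D1:**
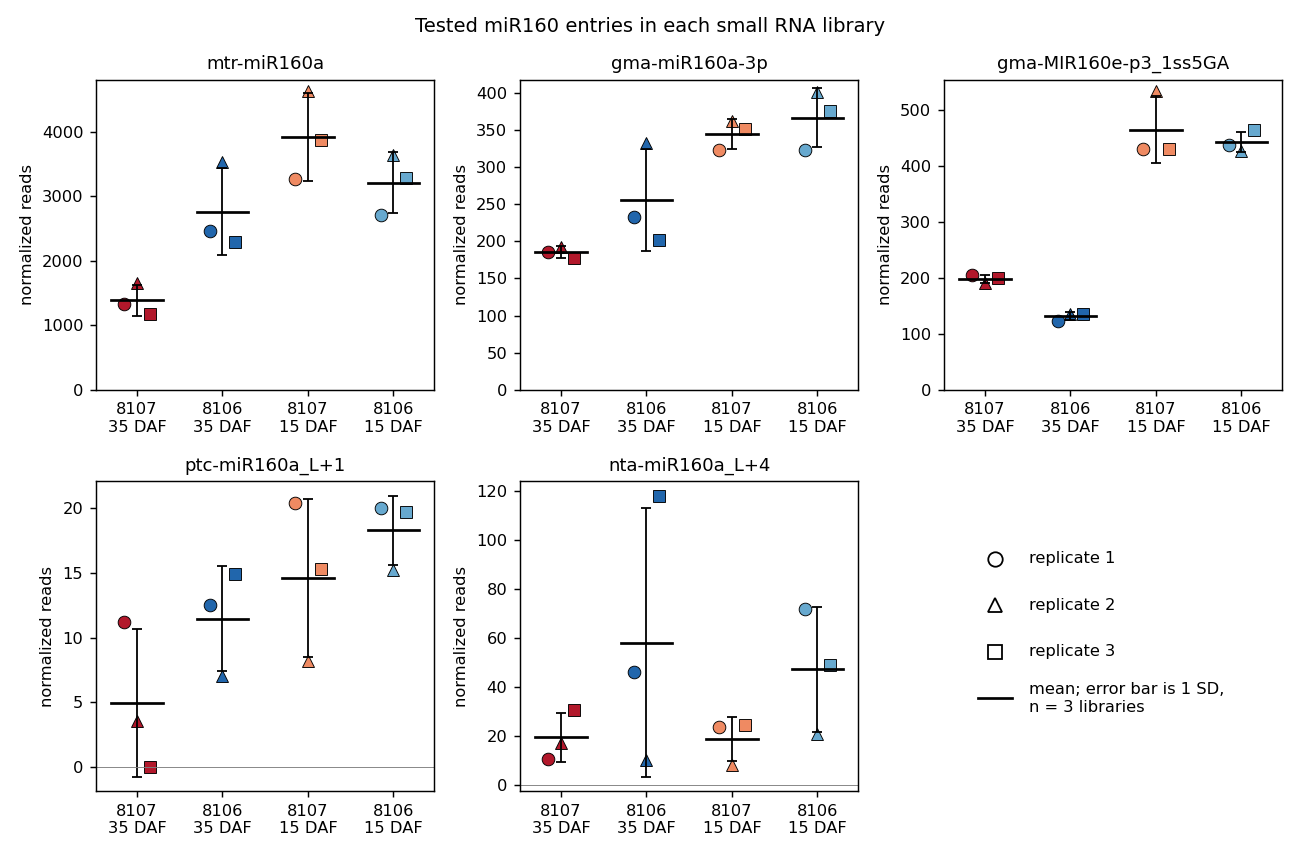
Normalized reads of the 5 tested miR160 entries (vertical axis, 1 panel each) in the 12 small RNA libraries, grouped by line and stage; the bar is the mean and the error bar 1 SD (n = 3). The 8107 libraries at 35 DAF are the lowest for mtr-miR160a (1177.6 to 1652.8), while gma-MIR160e-p3_1ss5GA is lowest in 8106 at 35 DAF (123 to 136).

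The 5′ extended isoforms were rare. The A-extended ptc-miR160a_L+1 measured 11.2, 3.58 and 0 normalized reads in 8107 and 12.5, 7.03 and 14.9 in 8106 at 35 DAF, against 20.4, 8.22 and 15.3 in 8107 and 20.0, 15.2 and 19.7 in 8106 at 15 DAF. The GATC-extended nta-miR160a_L+4 measured 10.4, 17.0 and 30.4 in 8107 and 46.0, 10 and 118 in 8106 at 35 DAF, against 23.7, 8.22 and 24.2 in 8107 and 71.6, 20.8 and 48.7 in 8106 at 15 DAF. The groups overlapped for the GATC form, whose 3 libraries of 8106 at 35 DAF differed the most from each other. Per 1000 normalized reads of mtr-miR160a, the GATC form ranged from 1.78 to 51.4 over the 12 libraries.

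The GATC form stood apart in the table in a further way. It was the 1 entry with 4 bases added at the 5′ end, and the 1 entry made of GATC followed by another listed sequence. It was lowest in replicate 2 in 3 of the 4 groups. The summed share of the library total in entries of 23 nt or more was also lowest in replicate 2, in all 4 groups, and ranged from 0.353 to 3.49%.

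The other 4 entries were above 0 in few libraries and were not tested. The second 5′ arm entry, mtr-MIR160a-p5, measured 8.13 in 1 library of 8106 at 35 DAF, 7.6 in 1 of 8107 and 5.54 in 1 of 8106 at 15 DAF. The 3′ arm entry vvi-MIR160d-p3 measured 4.85 and 5.88 in 2 libraries of 8106 at 15 DAF. The CC form mtr-miR160a_L+2 measured 4.83 in 1 library of 8107 and 11.2 in 1 of 8106 at 15 DAF, and the CCA form vvi-miR160c_L+3 measured 5.7 and 5.04 in 1 library each of the same groups. At 35 DAF all 4 were listed at 0 in the 3 libraries of 8107, and all but mtr-MIR160a-p5 in the 3 libraries of 8106. In either line a listed 0 may hide a few reads.

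At 35 DAF the mature miRNA was lower and a hairpin arm higher in 8107 than in 8106 on the deposited scale, whereas with equal library totals the mature miRNA was at a log2 difference of 0.07. In 8107, mtr-miR160a averaged 1386.3 ± 243 normalized reads, against 2758.6 ± 669 in 8106 (SD, n = 3 each). This was a log2 difference of -0.98 ± 0.21 (SE, limma with a trend, Benjamini-Hochberg adjusted p = 0.00253). The arm gma-MIR160e-p3_1ss5GA averaged 198 ± 6.93 in 8107 against 131 ± 7.21 in 8106, a log2 difference of 0.59 ± 0.11 (limma adjusted p = 0.00148). The opposite strand gma-miR160a-3p averaged 185 ± 7.96 in 8107 against 256 ± 68.5 in 8106, and its log2 difference of -0.43 ± 0.17 did not pass (limma adjusted p = 0.0578). Its value was -0.23 (adjusted p = 0.15) without replicate 2 of 8106 at 35 DAF, and it passed at -0.59 (adjusted p = 0.0148) without replicate 3 of that group.

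The rare isoforms did not pass at 35 DAF on the deposited scale. The log2 difference of ptc-miR160a_L+1 was -1.65 ± 0.77 (limma adjusted p = 0.096); it passed at -2.49 (adjusted p = 0.013) without replicate 1 of 8107 and was -0.68 (adjusted p = 0.33) without replicate 3 of 8107. That of nta-miR160a_L+4 was -1.08 ± 0.83 (limma adjusted p = 0.312). It passed at -2.0 (adjusted p = 0.0338) without replicate 2 of 8106 and was -0.29 (adjusted p = 0.803) without replicate 3 of 8106. Under other scalings ptc-miR160a_L+1 passed as lower with quantile normalization (-2.24, limma adjusted p = 0.016) and median centring (-2.05, limma adjusted p = 0.0393). With equal totals it did not pass (-0.89, limma adjusted p = 0.415), and nta-miR160a_L+4 passed under none of these scalings.

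Of the 5 tested entries of the family, 1 was higher, 1 lower and 3 did not pass, where 52.4% of the 395 tested entries of the table passed, 32.2% as higher and 20.3% as lower. These 127 higher and 80 lower entries became 187 higher and 34 lower with equal totals, 89 higher and 102 lower with quantile normalization, and 93 higher and 110 lower with median centring. The groups did not overlap for 3 of the 5, against 52.7% of all tested entries. The median log2 difference was -0.98 for the family and 0.03 for all tested entries.

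These directions at 35 DAF depended on the scaling. With every library scaled to the same total, the median of all tested entries moved to 1.01, mtr-miR160a to 0.07 (limma adjusted p = 0.771), gma-miR160a-3p to 0.62 and gma-MIR160e-p3_1ss5GA to 1.64, and both of these strands then passed as higher in 8107. With quantile normalization or median centring, mtr-miR160a stayed lower (-1.08 and -1.38), gma-miR160a-3p passed as lower (-0.98 and -0.84), and gma-MIR160e-p3_1ss5GA did not pass (0.03 and 0.19). The median of all tested entries was then -0.38 with quantile normalization and -0.37 with median centring.

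**Figure D2:**
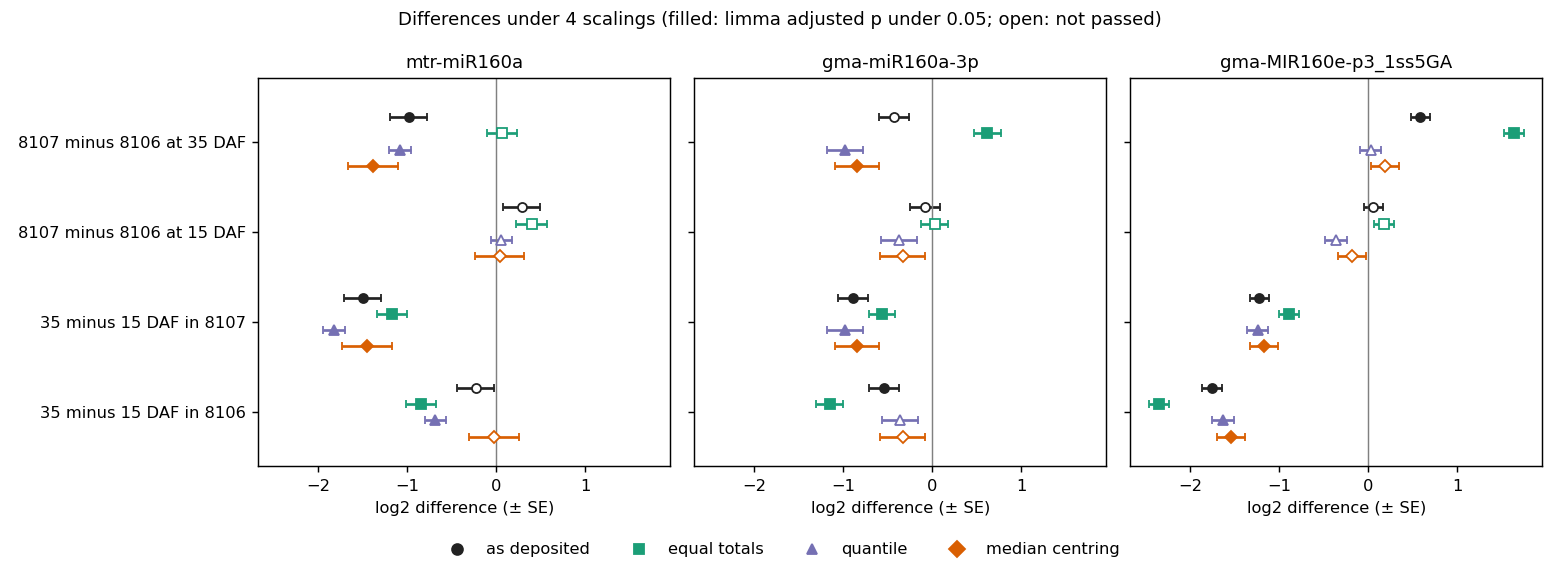
Log2 differences (horizontal axis, ± SE) of the 3 most abundant miR160 entries in 4 comparisons, with the values as deposited and under 3 other scalings; filled symbols passed at a limma adjusted p under 0.05. For 8107 minus 8106 at 35 DAF, mtr-miR160a runs from -1.38 with median centring to 0.07 with equal totals, and gma-MIR160e-p3_1ss5GA from 0.03 with quantile normalization to 1.64 with equal totals.

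At 15 DAF 0 of the 5 tested entries passed between the lines with limma, and 0 had an unadjusted p under 0.05. With voom on the estimated reads 0 passed as well. Among all tested entries 22.5% passed, 15.7% as higher and 6.84% as lower (89 entries, or 145 with a block for replicate number). The 62 higher and 27 lower entries became 43 higher and 39 lower with quantile normalization, and 25 higher and 36 lower with median centring. The groups did not overlap for 0 of the 5 against 44.1% of all. The log2 difference was 0.29 ± 0.21 for mtr-miR160a (limma adjusted p = 0.369), with 3921.9 ± 682 normalized reads in 8107 against 3205.5 ± 472 in 8106. It was -0.08 ± 0.17 for gma-miR160a-3p (limma adjusted p = 0.807) and 0.06 ± 0.11 for gma-MIR160e-p3_1ss5GA (limma adjusted p = 0.791). The least precise values were those of ptc-miR160a_L+1, at -0.38 ± 0.77, and nta-miR160a_L+4, at -1.26 ± 0.83.

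From 15 to 35 DAF the 3 abundant strands of the family all fell in 8107. The log2 difference, 35 minus 15 DAF, was -1.50 ± 0.21 for mtr-miR160a (limma adjusted p = 0.000207), -0.89 ± 0.17 for gma-miR160a-3p (limma adjusted p = 0.00188) and -1.22 ± 0.11 for gma-MIR160e-p3_1ss5GA (limma adjusted p = 1.49e-05). All 3 passed as lower under each of the 4 scalings, and their groups did not overlap. Thus 3 of 5 tested entries passed, all lower, where 46.3% of the table passed, 23.0% as higher and 23.3% as lower (91 and 92 entries, or 115 and 70 with equal totals). The family's median was -1.22 against 0.06 for all tested entries, and 58.0% of all tested entries had groups that did not overlap. The A-extended form averaged 4.92 ± 5.71 normalized reads at 35 DAF against 14.6 ± 6.12 at 15 DAF and missed the threshold (-1.95 ± 0.77, limma adjusted p = 0.062). It passed when replicate numbers were fitted as a block (limma adjusted p = 0.0409) and with quantile normalization (-2.22, limma adjusted p = 0.0182). With a pseudocount of 10 it passed narrowly (-0.76, limma adjusted p rounded to 0.05). It was -0.98 (adjusted p = 0.185) without replicate 3 of 8107 at 35 DAF, the library listed at 0, and passed at -2.79 (adjusted p = 0.00828) without replicate 1; with only the libraries compared the adjusted p was 0.165.

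In 8106 both 3′ arm strands fell with stage. The log2 difference, 35 minus 15 DAF, was -1.75 ± 0.11 for gma-MIR160e-p3_1ss5GA (limma adjusted p = 1.29e-06) and -0.54 ± 0.17 for gma-miR160a-3p (limma adjusted p = 0.0321). The mature strand was at -0.23 ± 0.21 and did not pass (limma adjusted p = 0.443), with 2758.6 ± 669 normalized reads at 35 DAF against 3205.5 ± 472 at 15 DAF. It passed as lower with equal totals (-0.84) and with quantile normalization (-0.68), and not with median centring (-0.02). The call for gma-miR160a-3p was lost with quantile normalization (-0.36), with median centring (-0.33), with no filter on low values (adjusted p = 0.064), with only the libraries compared (adjusted p = 0.135), and when any 1 of 4 libraries was left out: replicate 1 (adjusted p = 0.101) or 3 (adjusted p = 0.103) at 35 DAF, or replicate 2 (adjusted p = 0.102) or 3 (adjusted p = 0.0936) at 15 DAF. In all, 2 of 5 tested entries passed, both lower, where 36.2% of the table passed, 13.2% as higher and 23.0% as lower (52 and 91 entries, or 24 and 127 with equal totals). The median was -0.54 for the family and -0.24 for all tested entries. The groups did not overlap for 2 of the 5, against 44.6% of all. These were gma-MIR160e-p3_1ss5GA and ptc-miR160a_L+1. The log2 difference of ptc-miR160a_L+1 was -0.68 ± 0.77 and did not pass (limma adjusted p = 0.552). It passed at -1.49 with voom on the estimated reads (adjusted p = 0.0398). That of nta-miR160a_L+4 was -0.12 ± 0.83 (limma adjusted p = 0.963).

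The stage changes themselves differed between the lines for 2 entries, in opposite directions on the deposited scale. For mtr-miR160a the change in 8107 minus that in 8106 was -1.27 ± 0.29 on the log2 scale (limma adjusted p = 0.00593), and for gma-MIR160e-p3_1ss5GA it was 0.53 ± 0.16 (limma adjusted p = 0.0231). For gma-miR160a-3p it was -0.35 ± 0.25 and did not pass (limma adjusted p = 0.275). Of all 395 tested entries 41.0% passed this test, 22.3% as higher and 18.7% as lower (88 and 74 entries, or 153 and 32 with equal totals), and the median was -0.35 for the family and 0.52 for all tested entries.

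With equal totals the difference for mtr-miR160a was -0.33 and did not pass, while the median of all entries was 1.32 and gma-miR160a-3p passed the opposite way, at 0.58 (adjusted p = 0.0476). The call for gma-MIR160e-p3_1ss5GA was lost with quantile normalization (0.39), with median centring (0.37) and with no filter on low values (adjusted p = 0.0585). It was also lost without replicate 1 (adjusted p = 0.0517) of 8107 at 35 DAF, replicate 1 (adjusted p = 0.0558) of 8106 at 35 DAF, replicate 1 (adjusted p = 0.0551) or 3 (adjusted p = 0.061) of 8107 at 15 DAF, or replicate 3 (adjusted p = 0.0619) of 8106 at 15 DAF.

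Ratios between strands of the same library are left as they are by any factor applied to a whole library. They showed how the listed strands moved against each other. These ratios were chosen after the values were seen and are given with no test. Loci were not mapped, so a ratio may join strands of different hairpins. The ratio of mtr-miR160a to gma-miR160a-3p was 7.16, 8.57 and 6.65 in 8107 and 10.5, 10.6 and 11.4 in 8106 at 35 DAF. At 15 DAF it was 10.1, 12.8 and 11.0 in 8107 and 8.36, 9.05 and 8.72 in 8106. Relative to its opposite strand, the mature strand was thus lower in 8107 than in 8106 at 35 DAF and higher at 15 DAF, and at neither stage did the lines overlap. Within 8107 every library at 35 DAF was below every library at 15 DAF, and within 8106 every library at 35 DAF was above. With quantile normalization the log2 ratio fell in both lines, by 0.85 in 8107 and by 0.32 in 8106, and the lines differed at 35 DAF by -0.09 in place of -0.55.

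The ratio of mtr-miR160a to gma-MIR160e-p3_1ss5GA was 6.48, 8.65 and 5.93 in 8107 and 20.0, 26.0 and 17.0 in 8106 at 35 DAF. At 15 DAF it was 7.6, 8.69 and 9.01 in 8107 and 6.17, 8.5 and 7.09 in 8106. The 3 libraries of 8106 at 35 DAF stood above the other 9, which ran from 5.93 to 9.01. The same group stood apart in the ratio of the 3′ arm strands, gma-MIR160e-p3_1ss5GA to gma-miR160a-3p. This ratio was 1.1, 0.991 and 1.12 in 8107 and 0.526, 0.407 and 0.668 in 8106 at 35 DAF, against 1.33, 1.47 and 1.23 in 8107 and 1.35, 1.06 and 1.23 in 8106 at 15 DAF.

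**Figure D3:**
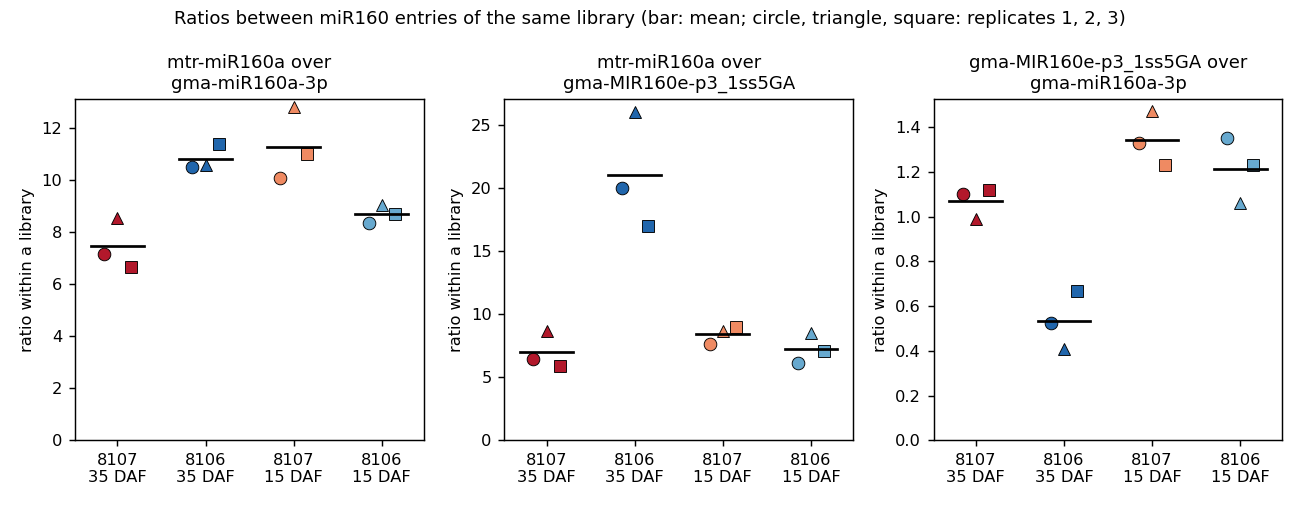
Ratios between the normalized reads of miR160 strands within each library (vertical axis), by line and stage, with the mean of 3 libraries as a bar. The ratio of mtr-miR160a to gma-MIR160e-p3_1ss5GA is 17.0 to 26.0 in 8106 at 35 DAF and 5.93 to 9.01 in the other 9 libraries.

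Over the 12 libraries, Pearson's r of log2(value + 1) with mtr-miR160a was 0.92 for gma-miR160a-3p, 0.55 for gma-MIR160e-p3_1ss5GA, 0.61 for ptc-miR160a_L+1 and -0.11 for nta-miR160a_L+4. Values of a library share its scaling and the 4 groups, so r is given as a description. The 5 tested entries outside the family most like mtr-miR160a by this r were mtr-miR164a (0.96), gma-miR171n_1ss20TC (0.96), gma-MIR162c-p5 (0.93), mtr-miR164a_1ss21AG (0.92) and the predicted candidate PC-5p-54392_148 (0.92). Among them mtr-miR164a, of a family that targets NAC transcription factor mRNAs, averaged 1123.7 normalized reads in 8107 and 5671.2 in 8106 at 35 DAF, against 8327.4 in 8107 and 8136.8 in 8106 at 15 DAF. The entry gma-miR171n_1ss20TC, of a family that targets GRAS transcription factor mRNAs, averaged 517 in 8107 and 1449 in 8106 at 35 DAF, against 1742.3 in 8107 and 1191.9 in 8106 at 15 DAF. On the deposited scale both were lowest in 8107 at 35 DAF, as mtr-miR160a was. As a share of the library total, mtr-miR160a averaged 0.278 ± 0.0312% in 8107 and 0.267 ± 0.0512% in 8106 at 35 DAF. The share was worked out for mtr-miR160a alone and says nothing of mtr-miR164a or gma-miR171n_1ss20TC.

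The miR160 entries were set beside the other auxin-related miRNA families: miR167, which targets ARF6 and ARF8, miR390, which triggers the small RNAs that act on ARF2, ARF3 and ARF4, and miR393, which targets auxin receptor mRNAs. Of 31 listed entries 22 were tested, 5 of miR160 and 17 of the other 3 families. At 35 DAF 12 of these 17 were higher in 8107, 3 were lower and 2 did not pass, where 32.2% of all tested entries were higher and 20.3% lower. Of the 11 tested miR167 entries 6 were higher and 3 lower, while all 3 of miR390 and all 3 of miR393 were higher. Isoforms and arms of 1 family are not independent. For the 17, quantile normalization gave 8 higher and 3 lower, median centring 10 higher and 4 lower, and equal totals 14 higher and 0 lower. For all tested entries these counts were 89 and 102, 93 and 110, and 187 and 34. At 15 DAF 3 of 17 were higher, 1 was lower and 13 did not pass, near the 15.7% higher and 6.84% lower of all tested entries. Quantile normalization gave 1 higher and 3 lower there, and median centring 0 higher and 1 lower. For all tested entries these counts were 43 and 39, and 25 and 36.

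The most abundant entry of each family was named. For ahy-miR167-5p the means at 35 DAF were 186348.2 ± 15770.8 normalized reads in 8107 against 433358.6 ± 50717.1 in 8106, a log2 difference of -1.21 ± 0.14 (limma adjusted p = 4.15e-05) that was -0.16 with equal totals and 0 with quantile normalization. For mtr-miR390 they were 589 ± 110 in 8107 against 76.9 ± 18.9 in 8106, a log2 difference of 2.93 ± 0.19 (limma adjusted p = 4.95e-07). For mtr-miR393a_R+1_1 they were 41.5 ± 3.43 in 8107 against 9.58 ± 3.42 in 8106, a log2 difference of 2.06 ± 0.39 (limma adjusted p = 0.0013). Of these, mtr-miR390 passed as higher under each of the 4 scalings, and mtr-miR393a_R+1_1 under all but quantile normalization (1.65, adjusted p = 0.0617).

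With stage, 35 minus 15 DAF, 7 of the 17 entries of these 3 families were higher in 8107, 1 was lower and 9 did not pass, where 23.0% of all tested entries were higher and 23.3% lower. In 8106 3 were higher, 5 lower and 9 did not pass, where 13.2% of all were higher and 23.0% lower. With equal totals these counts were 9 and 0 in 8107, and 1 and 6 in 8106. For all tested entries they were then 115 and 70 in 8107, and 24 and 127 in 8106. The stage change itself was higher in 8107 than in 8106 for 9 of the 17, lower for 1 and did not pass for 7, where 22.3% of all were higher and 18.7% lower. With quantile normalization 5 were higher and 0 lower, where 63 of all tested entries were higher and 78 lower. With equal totals 12 were higher and 0 lower, where 153 of all tested entries were higher and 32 lower. In 8107 mtr-miR390 fell with stage by 0.52 ± 0.19 on the log2 scale (limma adjusted p = 0.0492), with 589 ± 110 normalized reads at 35 DAF against 840 ± 98.8 at 15 DAF. That call was lost with equal totals (-0.19) and with median centring (-0.47). In 8106 it fell by 2.66 ± 0.19 (limma adjusted p = 1.83e-06), with 76.9 ± 18.9 against 485 ± 54.8. In 8107 mtr-miR393a_R+1_1 rose by 3.11 ± 0.39 (limma adjusted p = 0.00011), with 41.5 ± 3.43 at 35 DAF against 4.01 ± 1.27 at 15 DAF.

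The targets come from the degradome table, in which each line pairs a small RNA with a transcript and a cleavage base and gives an alignment score, lower for a closer match. A degradome library captures the 5′ ends of cut RNA. The table has no column for a library, so a pair cannot be assigned to a line or a stage, and it gives no abundance. Lines with a miR160 name numbered 121 of 3630 and covered 4 of the 9 sequences, namely mtr-miR160a and its A, CC and CCA forms. Without repeats these were 42 combinations of small RNA, transcript and site. Under each name of the small RNA, 23 were listed 2 times and 19 listed 1 time. The 4 sequences carried 6 names, 3 of them for mtr-miR160a, so each combination of mtr-miR160a fills more lines than that.

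All 15 transcripts paired with miR160 entries carried an ARF symbol. They were 6 transcripts of ARF18, 4 of ARF17, 2 each of ARF16 and ARF10, and 1 of ARF8, with symbols as the authors' table gives them. Of the 15, 0 were paired in the table with a small RNA outside the family. The other small RNAs in the table were paired with 20 ARF transcripts, all with a score of 4, and 0 of these were among the 15. They included 14 transcripts paired with miR167 names.

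The closest matches of mtr-miR160a were ARF17 transcripts, with a score of 0.5 at cleavage bases 1205 and 1322 of the transcript, counted from its start. Another pair of ARF17 transcripts scored 1.5, at bases 1346 and 1379, and each was listed 1 time under each name of mtr-miR160a. The ARF16 transcripts scored 1, at bases 1214 and 1250, and so did all 6 ARF18 transcripts, at bases 1268 to 1355, and the ARF8 transcript, at base 1280. The ARF10 transcripts scored 4, the worst score in the table, at bases 1355 and 1364. The transcript named ARF8 is not the ARF8 transcript paired with miR167 names, whose sites were at bases 2238 and 2239. It was paired with the same 4 sequences, at the same scores, as the ARF16 transcripts and some ARF18 transcripts. Its symbol was not checked against a sequence.

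The extended isoforms were paired with the same transcripts at neighbouring bases. The A form had 11 of the 15 transcripts, 6 of them listed 2 times, with scores of 0.5 to 4. The CC form had 9, each listed 1 time, with scores of 2.5 to 3. The CCA form had 7, with scores of 2. On 7 transcripts, of ARF8, ARF16 and ARF18, all 4 sequences were listed, so that 4 adjacent bases were given as cleavage sites, such as 1355 to 1358 on an ARF18 transcript. On each transcript that both were paired with, ptc-miR160a_L+1 had the same score as mtr-miR160a; in the small RNA table it was listed at 0 to 20.4 normalized reads.

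In all 42 combinations the listed base lay opposite base 10 of the small RNA, counted from its 5′ end, against 79.0% of the 2425 other combinations of the table. A score of 1 or lower was given for 20 of the 42 (47.6%), against 6.31% of the others. Since isoforms share their 3′ sequence and transcripts of 1 symbol share theirs, the 42 are not independent. On a transcript paired with several isoforms, each isoform was listed opposite its own base 10, at adjacent bases. The listed position thus moved with the small RNA named and is given as a description. The 5 sequences with no degradome line were the 4 opposite-arm or second-arm strands and the GATC form.

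**Figure D4:**
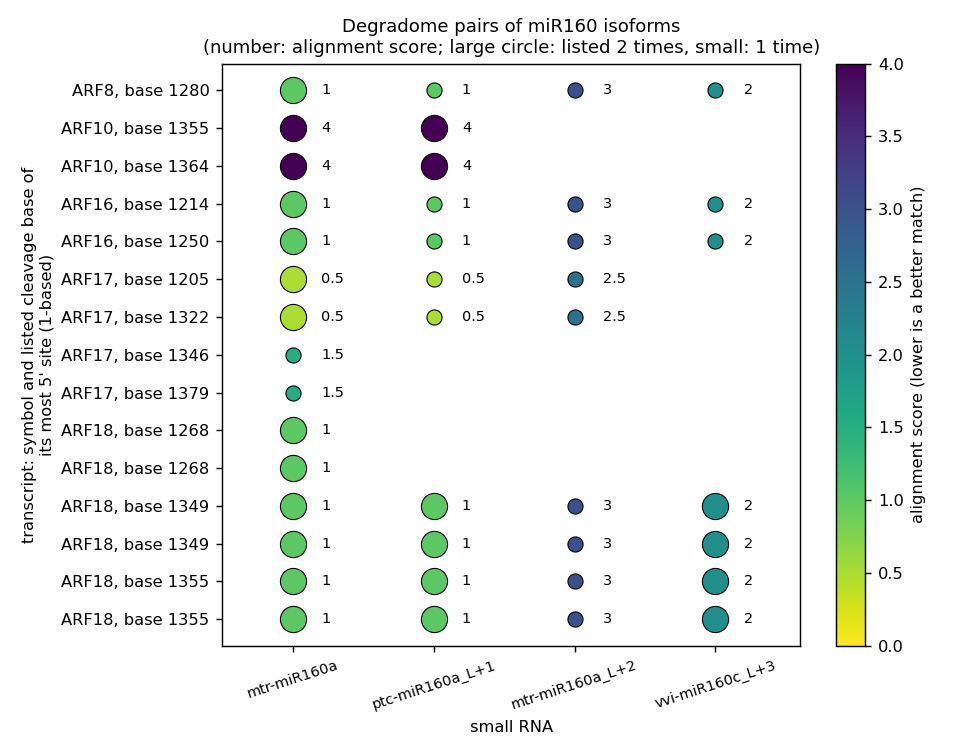
Degradome combinations of the miR160 sequences (horizontal axis) with 15 ARF transcripts (vertical axis, named by symbol and most 5′ listed cleavage base), coloured and numbered by alignment score. Large circles mark combinations listed 2 times under each name of the small RNA, and small circles 1 time. The scores of mtr-miR160a run from 0.5 for ARF17 to 4 for ARF10.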

How the data were processed

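The TruSeq small RNA kit and a size selection on a gel were used for the 12 small RNA libraries, per the labels' protocols. The signal deposited by the authors is in normalized reads. How they were normalized is not stated in the sources used here, and Bowtie is named in the submitters' processing notes with no version. Degradome values are the alignment score the authors deposited. Nearly all values of a library (98.2 to 99.4%, within 0.02 steps) were whole multiples of 1 step, which gave 580010 to 3243623 reads per library.

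Values were taken as log2(value + 1). Adding 1 shrinks changes of low entries, but a listed 0 that hides reads can widen them. The log2 difference of ptc-miR160a_L+1 at 35 DAF, -1.65 with 1 library listed at 0, was -0.68 without that library. limma 3.58.1 in R 4.3.3, with a trend and 1 mean per group over all 12 libraries, was run on the 395 entries at 10 or more in at least 3 libraries, after a check on simulated data. Python 3.11.15 was used for tables. Benjamini-Hochberg adjustment covered all 395 entries, with a threshold of 0.05. The filter used all groups, so a low entry could pass through the group where it was high; 5 of the 9 miR160 entries passed it. The values were not whole counts, so the test for normalized values was used.

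All miR160 entries and their degradome lines were reported, with the most abundant entry of each auxin-related family and the 5 entries most like mtr-miR160a. Members, lists and tests were chosen with earlier results of these data known. The labels do not say whether replicates are separate plants, and p-values therefore reflect the spread among these libraries, possibly a technical one. Same-numbered libraries were checked for pairing by the correlation of their deviations from group means. It was 0.148 to 0.542 for the lines at 15 DAF. For the stages it was 0.159 to 0.512 in 8107 and 0.122 to 0.677 in 8106. In these comparisons the numbers were taken to pair the libraries (over 0.1 in every pair). For the lines at 35 DAF it was 0.039, 0.658 and 0.544 for replicates 1 to 3, so replicate 1 alone fell under the cut. The main tests were fitted without a block for replicate number. With that block the SE of mtr-miR160a between the lines at 35 DAF was 0.11 in place of 0.21. Between the lines at 15 DAF, the SE was also 0.11 in place of 0.21. The limma adjusted p there was 0.0675 with the block in place of 0.369, so it did not pass either way. Other scalings, filters, a pseudocount of 10, the replicate block and leaving out each library were tried, and voom on the estimated reads was added after the data were seen.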

Additional observations from a re-analysis of the deposited data

Results flagged for a closer look

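The change of mtr-miR160a from 15 to 35 DAF differed between the lines by -1.27 ± 0.29 on the log2 scale (8107 minus 8106, limma adjusted p = 0.00593), but by -0.33 with equal library totals, where it did not pass (adjusted p = 0.301). All 3 libraries of 8107 at 35 DAF lay below all 3 of 8107 at 15 DAF, while the stages overlapped in 8106 on the deposited scale. As a share of the library total they did not overlap in 8106 either, with 0.229 to 0.325% at 35 DAF against 0.395 to 0.55% at 15 DAF. The change of gma-MIR160e-p3_1ss5GA differed by 0.53 ± 0.16 (limma adjusted p = 0.0231), the opposite way, and did not pass with quantile normalization (0.39) or median centring (0.37). The median difference over all tested entries was 0.52 on the deposited scale, so this arm lay near that median.

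The ratio of mtr-miR160a to gma-miR160a-3p within a library moved with stage in opposite directions in the lines on the deposited scale. Every 8107 library at 35 DAF was below every one at 15 DAF, and every 8106 library at 35 DAF was above. The log2 ratio changed by -0.60 in 8107 and by 0.31 in 8106, a difference of -0.91 that was not tested. With quantile normalization the ratio was lower at 35 DAF in both lines, by -0.85 in 8107 and -0.32 in 8106 on the log2 scale.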

How the results depend on the processing

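Of 545 values for single miR160 entries under alternative settings, 485 kept their direction and their side of the threshold, 20 lost a call and 16 gained one in the same direction, and 24 changed sign, of which 2 lost a call, 3 gained one and 19 had none. For mtr-miR160a the fall with stage in 8107 passed under every alternative run. Its difference at 35 DAF passed in all except equal totals and voom on the estimated reads, which was chosen after seeing the data (0.07 in both). Its stage change in 8106 passed with equal totals (-0.84), quantile normalization (-0.68) and voom (-0.84), and the difference of stage changes did not pass with equal totals (-0.33) or voom (-0.32). The cause was not tested.

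Without 1 library at a time, mtr-miR160a ranged from -1.11 to -0.79 at 35 DAF, from 0.16 to 0.41 at 15 DAF, from -1.63 to -1.37 with stage in 8107, from -0.42 to -0.11 in 8106 and from -1.40 to -1.08 for the difference. Entries called at 15 DAF ranged from 42 to 112, against 89 with all libraries; the count was 42 and 47 without replicates 1 and 3 of 8106, and 51 and 52 without replicates 2 and 3 of 8107. With only the libraries compared, 137 entries passed at 35 DAF, against 207.

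Other sign changes were as follows. At 15 DAF gma-miR160a-3p was 0.03 with equal totals and with voom, and gma-MIR160e-p3_1ss5GA was -0.36 with quantile normalization, -0.18 with median centring and -0.04 to 0.11 without 1 library. At 35 DAF gma-miR160a-3p passed at 0.62 with equal totals and 0.59 with voom, and nta-miR160a_L+4 was 0.26 with voom. For the difference of stage changes gma-miR160a-3p passed at 0.58 with equal totals and was 0.56 with voom. The value of nta-miR160a_L+4 was -0.11 with quantile normalization in 8107 with stage, 0.27 (quantile) and 0.09 (median centring) in 8106, and -0.38 with quantile normalization for the difference. Without 1 library it ranged from -0.42 to 0.41, from -0.91 to 0.80 and from -0.75 to 0.97.

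The replicate block raised the count at 15 DAF to 145. At 35 DAF, where replicate 1 alone fell under the cut for pairing, it gave gma-miR160a-3p a call (-0.43, limma adjusted p = 0.023). It also gave ptc-miR160a_L+1 a call with stage in 8107 (-1.95, limma adjusted p = 0.0409). It changed no other call of a miR160 entry. With a score of 2 or lower, 29 of the 42 degradome combinations were left. The count-based tests planned for recovered reads were not run. Depth limits the entries near 10 normalized reads, and 3 libraries a group limit the precision of all.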
